A study of Mus musculus with 33 samples.

Results

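The BMP and TGF-beta signalling genes examined here were 10 genes chosen by symbol: the ligands Bmp4, Bmp7, Tgfb1 and Tgfb2, the receptors Bmpr1a, Bmpr1b, Bmpr2, Tgfbr1 and Tgfbr2, and the secreted BMP inhibitor Noggin (Nog). They are 10 of the 18848 genes listed in the count files, and each symbol had 1 entry. BMP and TGF-beta ligands are secreted dimers that assemble type I and type II serine/threonine kinase receptors on the receiving cell, and the activated type I receptor phosphorylates Smad proteins that enter the nucleus. BMP receptors signal mainly through one set of receptor-activated Smads and TGF-beta receptors through another, and Noggin binds BMP ligands before they reach a receptor. In the hippocampus, BMP signalling is known for holding neural stem cells quiescent and for shifting precursors towards astrocytes, and TGF-beta signalling for maintaining the identity of microglia.

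Single cells of the hippocampus were profiled by SORT-seq, a plate-based method that copies the 3' ends of transcripts with a molecular barcode for each copy and a barcode for each well. The labels give strain C57BL/6 and genotype wild-type for every library, also for the library from NestinGFP mice, which carry a GFP reporter transgene. The niche group held 31 libraries from 5 numbered experiments, in which neurons were depleted and live cells negative for antibodies against GluR1 and Cd24 were sorted into wells. Of the other libraries, 1 came from mice older than 12 months and was sorted through the same gate, and 1 held hippocampal cells that were positive for GFP driven by the Nestin promoter. Neither the age of the remaining mice nor the number of animals behind an experiment is given in the sources used here. The experiment was taken as the replicate. P-values measure the spread between experiments, which may be technical. The old and Nestin-GFP libraries are single libraries without replicates and were only described.

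Of 3840 niche wells, 1285 held at least 1000 transcripts and were kept as cells, with a median of 1942 to 12391 transcripts per cell in the 5 experiments. The old library gave 138 cells and the Nestin-GFP library 315. Cells were clustered on a random 50% of their transcripts, and every level below comes from the other 50%, the held-out transcripts, summed over the cells of 1 class in 1 experiment. Levels are in CPM, a gene's transcripts scaled to the total of the sum. Among the niche cells, 285 were microglia-like, 271 oligodendrocyte precursor-like (called precursor-like here), 226 astrocyte-like, 219 neuroblast-like, 66 mature oligodendrocyte-like, 43 neural stem cell-like, 41 lymphoid-like, 36 proliferating progenitor-like, 27 endothelial-like, 25 mural-like and 13 fibroblast-like; 19 lay in a cluster led by haemoglobin genes and 14 in unnamed clusters. Microglia markers summed to 44533.9 CPM in the microglia-like sums and perivascular macrophage markers to 267.4 CPM, and oligodendrocyte precursor markers lay between 12275.7 and 13198.3 CPM in the precursor-like sums of the 5 experiments, which also held mature oligodendrocyte markers at 1585.7 to 5903.2 CPM. Neural stem cell-like sums held astrocyte markers at 25109.8 to 43874.6 CPM, above their own markers at 4307.3 to 8408.1 CPM. The neuroblast-like sum of experiment 5, from 7 cells, stood apart, with 7 of 7 choroid plexus markers detected at a summed 72017.5 CPM against 0 to 3168.5 CPM in the other experiments. Sums of at least 5 cells entered the tests, which left 9 classes and 34 sums. A lower level in such a sum can mean fewer cells with the transcript or fewer transcripts per cell, and these cannot be told apart from the sum alone.

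For the 2 TGF-beta receptors, which were both high in microglia-like cells, and for Bmp4, the ligand most restricted to precursor-like cells by its counts, the 250 bases before the RefSeq transcription start (GRCm38/mm10) are printed 5' to 3' on the gene's strand. Capitals mark matches on either strand to 3 motifs: GAGGAA, the purine-rich core bound by the myeloid factor PU.1, CAGAC, the Smad box, and GGCGCC, a GC-rich element bound by BMP-responsive Smads. Of 32851 promoter windows of this length, 23.3% held GAGGAA, 42.2% held CAGAC and 9.59% held GGCGCC. The Tgfbr1 window lies at chr4:47352972-47353221 on the plus strand, the Tgfbr2 window at chr9:116175364-116175613 on the minus strand and the Bmp4 window at chr14:46390670-46390919 on the minus strand.
Tgfbr1: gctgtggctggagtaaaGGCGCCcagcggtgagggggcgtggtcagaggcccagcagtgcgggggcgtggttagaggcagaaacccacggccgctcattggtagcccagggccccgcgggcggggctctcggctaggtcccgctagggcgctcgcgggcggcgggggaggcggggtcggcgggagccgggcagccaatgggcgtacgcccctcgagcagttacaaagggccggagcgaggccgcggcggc
Tgfbr2: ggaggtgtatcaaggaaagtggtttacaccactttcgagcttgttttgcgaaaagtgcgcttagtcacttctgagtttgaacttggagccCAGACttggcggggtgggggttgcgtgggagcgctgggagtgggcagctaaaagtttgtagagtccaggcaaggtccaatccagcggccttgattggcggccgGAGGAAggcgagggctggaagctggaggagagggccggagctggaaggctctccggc
Bmp4: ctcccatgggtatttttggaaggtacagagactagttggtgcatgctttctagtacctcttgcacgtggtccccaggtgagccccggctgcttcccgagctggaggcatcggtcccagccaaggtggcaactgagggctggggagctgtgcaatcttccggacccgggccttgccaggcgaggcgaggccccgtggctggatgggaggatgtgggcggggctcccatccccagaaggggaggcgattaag
The Tgfbr1 window held 1 match to GGCGCC and none to the other motifs. The Tgfbr2 window held 1 match to GAGGAA, which starts 57 bases before the transcription start, and 1 match to CAGAC, 160 bases before it. The Bmp4 window held no match to any of the 3. A match describes letters and is not evidence of binding. Of the 10 genes, 8 had a promoter in the RefSeq table, and Bmp7 and Nog did not.

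**Figure D1:**
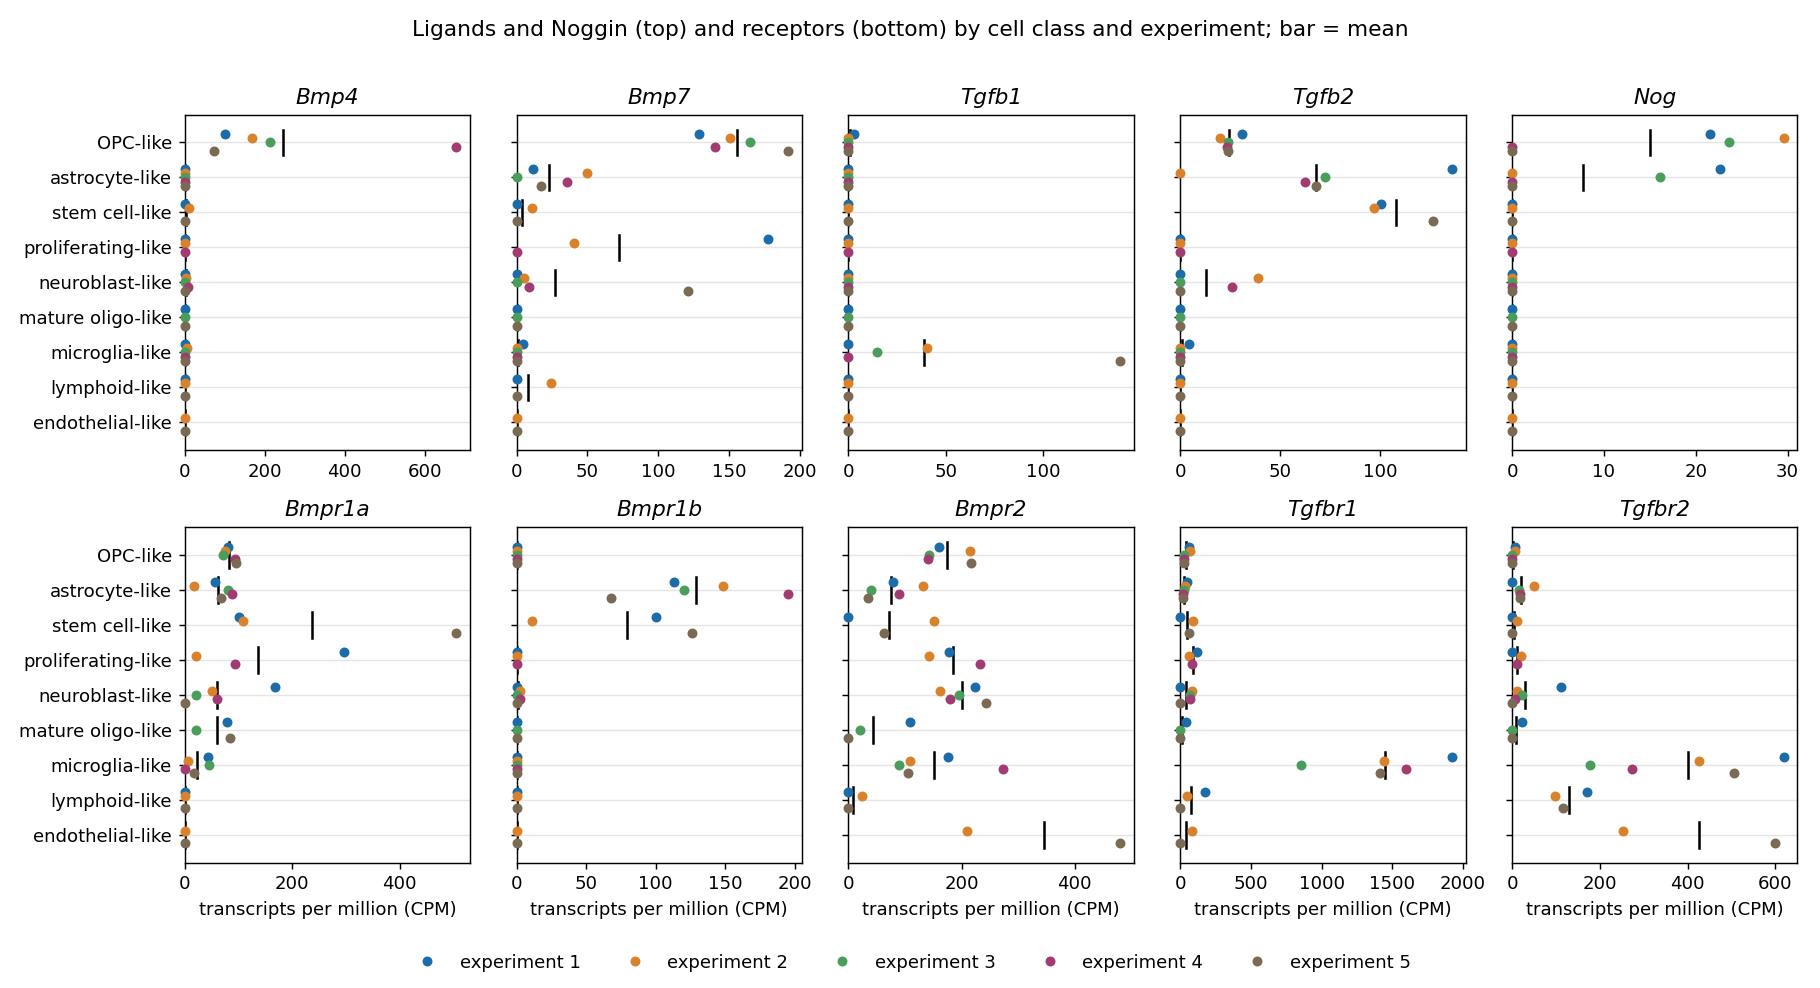
Held-out CPM (x axis) of each of the 10 genes in 9 cell classes (y axis; OPC, oligodendrocyte precursor), with 1 point per experiment and a bar at the mean. Bmp4 and Bmp7 were high in precursor-like cells and Tgfbr1 in microglia-like cells (mean 1445.9 CPM). Bmpr1b had its highest means in astrocyte-like and stem cell-like cells, the latter from 4 held-out transcripts. The x axes start at 0 and differ between panels.

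Bmp4 (ENSMUSG00000021835, chr14:46383520-46390669, minus strand), which encodes a BMP ligand known to restrain the maturation of the oligodendrocyte lineage and neural stem cell division, was concentrated in precursor-like cells among the 9 tested classes. Its level there was 101.4 CPM in experiment 1, 168.0 in experiment 2, 212.5 in experiment 3, 679.4 in experiment 4 and 72 in experiment 5, with a mean of 246.6 ± 248.1 CPM (SD, n = 5). Experiment 4 was highest and rested on 29 held-out transcripts of 6 cells; in the full counts, 1 of these cells carried 27 of 69 Bmp4 transcripts. No held-out Bmp4 transcript was counted in astrocyte-like, mature oligodendrocyte-like, endothelial-like, lymphoid-like or proliferating progenitor-like sums, and no sum of another tested class reached the precursor-like range. Of the classes that were not tested, the fibroblast-like cells of experiment 4 (238.8 CPM) and the mural-like cells of experiment 2 (83.7 CPM, from 2 transcripts) lay inside that range, and the 1 mural-like cell of experiment 3 held 1 transcript. Neural stem cell-like cells, the next class by mean, stood at 3.59 ± 6.21 CPM (n = 3), from 1 transcript (adjusted p = 0.00355 against precursor-like cells), and neuroblast-like cells at 2.22 ± 3.76 CPM (n = 5).

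Against astrocyte-like cells, with 0 transcripts, the precursor-like level of Bmp4 was at least 36.6-fold higher, and the fitted difference passed edgeR's quasi-likelihood test (adjusted p = 1.14e-12 after Benjamini-Hochberg adjustment over 4043 genes; higher in 5 of 5 experiments). It was 53.7-fold higher than in neuroblast-like cells (log2 fold change 5.75 ± 0.681, SE; adjusted p = 1.26e-13). It was at least 8.08-fold higher than in mature oligodendrocyte-like cells (adjusted p = 9.54e-05; 3 of 3 experiments). Microglia-like cells held 1 transcript, and the ratio of precursor-like to microglia-like counts was 87.4 (95% interval 15.4 to 3474.4, counting error only; adjusted p = 1.43e-10). Bmp4 passed the filter on low counts through precursor-like cells alone, so a difference from the other classes was built into its being tested. DESeq2 called none of these 4 differences (precursor-like against astrocyte-like: log2 fold change 6.35 ± 4.49, SE; adjusted p = 0.337). Without experiment 3 or without experiment 4, Bmp4 no longer passed the filter; in the fit without that filter the difference from mature oligodendrocyte-like cells was lost without experiment 1 (adjusted p = 0.0596).

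Few precursor-like cells carried most of the Bmp4 transcripts. In all, 64 of 271 precursor-like niche cells (23.6%) had at least 1 Bmp4 transcript in the full counts, against 3 of 226 astrocyte-like cells (1.33%) and 6 of 285 microglia-like cells (2.11%). The most Bmp4 transcripts in 1 cell were 22 in experiment 1, 37 in experiment 2, 10 in experiment 3, 27 in experiment 4 and 2 in experiment 5. Cells with Bmp4 were more deeply sampled, with a median of 7686 transcripts against 4976 in precursor-like cells without it.

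Precursor-like cells with a Bmp4 transcript among the transcripts used for clustering were compared with those without one, on the held-out transcripts, a description chosen after the data were seen. Gpr17, a receptor that marks committed, differentiating precursors, stood at 2464.1 CPM with Bmp4 and 859.6 CPM without in experiment 1, at 2577.0 and 1653.4 CPM in experiment 2, at 3301.2 and 834.6 CPM in experiment 3, and at 5383.8 and 2661.0 CPM in experiment 4. The cells with Bmp4 numbered 15, 24, 3 and 3 in experiments 1 to 4. In experiment 4 the other side was also 3 cells, with a median of 3437 transcripts against 19469. Gpr17 was thus higher beside Bmp4 in these 4 experiments, but not in experiment 5, where 1 cell carried Bmp4 (0 against 1359.9 CPM), nor among old precursor-like cells (1020.9 CPM in the 6 with Bmp4 and 1454.2 CPM in the 13 without). Pdgfra, the growth factor receptor of early precursors, went the other way: 1598.3 CPM with Bmp4 and 3759.5 CPM without in experiment 1, 2569.5 and 3163.5 CPM in experiment 2, 2230.5 and 3434.6 CPM in experiment 3, and 846.5 and 2432.9 CPM in experiment 4. In experiment 5 the 1 cell with Bmp4 was higher (6116.2 against 4784.7 CPM). In the old library Pdgfra was higher in cells with Bmp4 (4083.5 against 2705.8 CPM). In the Nestin-GFP library, 7 cells with Bmp4 held Gpr17 at 2767.1 CPM and Pdgfra at 2577.6 CPM, and the 62 without it 1229.7 and 4025.8 CPM.

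**Figure D2:**
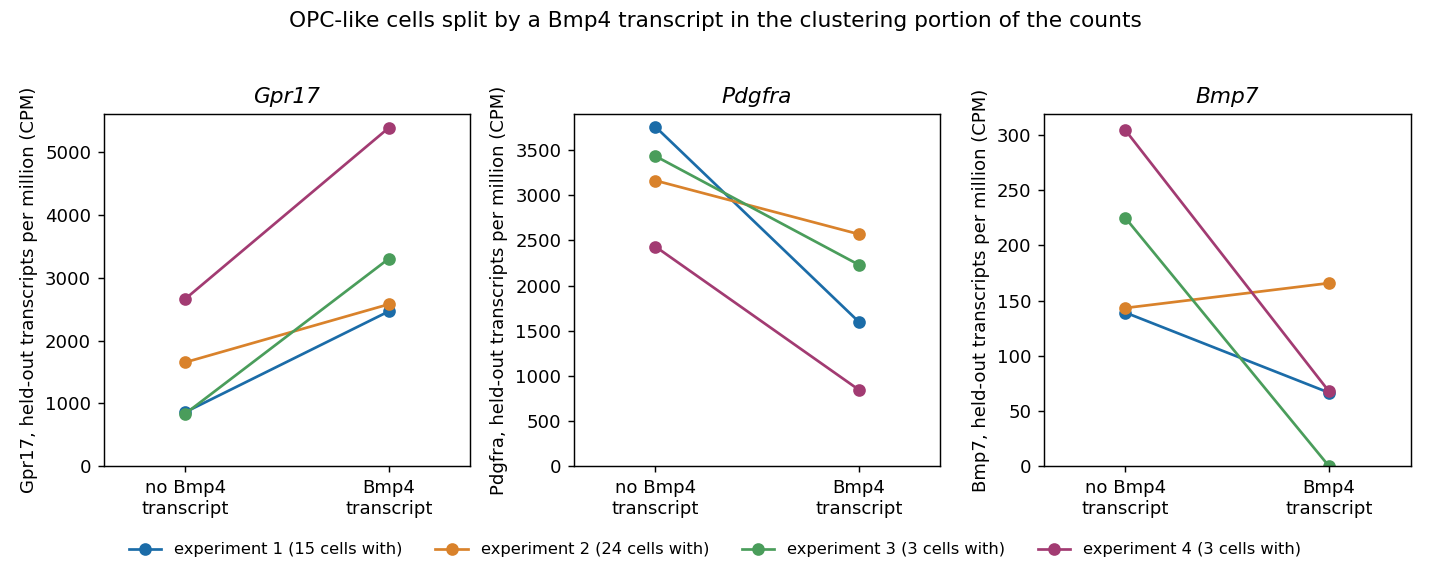
Held-out CPM (y axes) of Gpr17, Pdgfra and Bmp7 in oligodendrocyte precursor-like cells without and with a Bmp4 transcript (x axis), with 1 line per experiment; experiment 5, with 1 such cell, is not drawn. In experiments 1 to 4 Gpr17 was higher and Pdgfra lower in the cells with Bmp4, while Bmp7 was lower in experiments 1, 3 and 4 and not in experiment 2 (165.8 against 143.3 CPM). Experiments 3 and 4 held 3 cells with Bmp4 each.

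The same relation was tested from the other side, over precursor-like cells split by a Gpr17 transcript among those used for clustering. Only experiments 1 and 5 held at least 5 cells on both sides of the split, so experiments could not be left out. Bmp4 was 123.8 CPM in the 100 Gpr17-detected cells of experiment 1 and 81.3 CPM in the 22 of experiment 5, and no Bmp4 transcript was counted in any of the Gpr17-undetected cells of these or the other experiments, which were fewer and shallower (37 cells with a median of 3043 transcripts against 5287 in experiment 1). Of 1173 genes tested with edgeR, 0 (0%) were called and 24 had an unadjusted p under 0.05. The 1 tested member, Bmpr2, was not called by edgeR or DESeq2 (log2 fold change -0.04 ± 0.323, SE; adjusted p = 1), and 0 members had an unadjusted p under 0.05. Bmp4 itself failed the filter, and without it had an unadjusted p of 0.0133 and an adjusted p of 1.

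Bmp7 (ENSMUSG00000008999, chr2:172868012-172940321, minus strand), a second BMP ligand, was highest in precursor-like cells among the tested classes, and its values there spread less over the experiments than those of Bmp4. Its level there was 129.1, 150.7, 165.2, 140.6 and 192.0 CPM in experiments 1 to 5 (155.5 ± 24.3 CPM, SD, n = 5). Astrocyte-like cells stood at 22.7 ± 19.7 CPM (n = 5), proliferating progenitor-like cells at 72.7 ± 92.9 CPM (n = 3), and endothelial-like and mature oligodendrocyte-like sums held 0 transcripts. Precursor-like sums lay above every astrocyte-like, neuroblast-like, microglia-like and mature oligodendrocyte-like sum, but overlapped the proliferating progenitor-like sums. Bmp7 failed the filter on low counts and was tested without it, over 16811 genes. Precursor-like cells were then 5.26-fold higher than astrocyte-like cells (log2 fold change 2.39 ± 0.531, SE; adjusted p = 1.39e-04, edgeR; 5 of 5 experiments). They were 15.9-fold higher than neuroblast-like cells (adjusted p = 5.59e-10) and at least 10.2-fold higher than mature oligodendrocyte-like cells (adjusted p = 2.05e-05, and 0.066 without experiment 1). The neuroblast-like level of 27 ± 52.8 CPM came largely from 1 transcript in the 7 cells of experiment 5 (121.2 CPM), the sum with the choroid plexus markers. A lower Bmp7 level in microglia-like than astrocyte-like cells (1 against 9 transcripts; adjusted p = 0.0157) was lost without experiment 2, 4 or 5 (adjusted p = 0.273, 0.157 and 0.0652).

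Bmp7 was detected in 122 of 271 precursor-like cells (45.0%), in 14 of 226 astrocyte-like cells (6.19%) and in 2 of 285 microglia-like cells (0.702%). Both ligands were detected in 30 precursor-like cells, 46.9% of those with Bmp4 and 24.6% of those with Bmp7. The most Bmp7 transcripts in 1 cell lay between 3 and 7 over the 5 experiments, against 2 to 37 for Bmp4.

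Tgfb2 (ENSMUSG00000039239, chr1:186622792-186705989, minus strand), a TGF-beta ligand, had its highest mean in neural stem cell-like cells, at 100.2, 96.9 and 126.4 CPM in experiments 1, 2 and 5 (107.8 ± 16.2 CPM, SD, n = 3). These values rested on 1, 9 and 2 held-out transcripts (95% Poisson interval 2.54 to 558.1 CPM in experiment 1). Astrocyte-like cells followed with 135.8, 0, 72.3, 62.2 and 68.0 CPM in experiments 1 to 5 (67.7 ± 48.2 CPM), and the fit found no difference between these 2 classes (log2 fold change -0.02 ± 0.566, SE; adjusted p = 1, edgeR without the filter). Precursor-like cells had a lower mean, at 19.8 to 30.7 CPM (24.3 ± 3.98 CPM, n = 5), and overlapped the astrocyte-like range through the astrocyte-like 0 of experiment 2. The precursor-like values of experiments 3, 4 and 5 rested on 1 held-out transcript each. In the full counts the precursor-like sums ranged from 11.7 to 41.5 CPM (20.5 ± 12.8 CPM). The 3.67-fold lower precursor-like level passed the test (adjusted p = 0.00621) but not without experiment 1 or 2 (adjusted p = 0.217 and 0.0557). Microglia-like cells held 1 Tgfb2 transcript, and the astrocyte-like to microglia-like count ratio was 37.9 (95% interval 6.34 to 1544.2; adjusted p = 8.07e-08; higher in astrocyte-like cells in the 4 experiments where these had any). The lower level in neuroblast-like cells (13 ± 18.4 CPM; adjusted p = 0.0337) was lost without experiment 1, 3, 4 or 5 (adjusted p = 0.107 to 0.363), and in the full counts the order of means turned (62.4 ± 67.1 CPM in neuroblast-like and 57.4 ± 38.2 CPM in astrocyte-like cells). The lower microglia-like than precursor-like level (adjusted p = 0.00797) was lost without experiment 1 or 2 (adjusted p = 0.0727 and 0.13).

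Tgfb1 (ENSMUSG00000002603, chr7:25687002-25705077, plus strand), the TGF-beta ligand made by microglia and other immune cells, was counted almost only in microglia-like cells. Its microglia-like level was 0, 40.6, 14.8, 0 and 139.7 CPM in experiments 1 to 5 (39.0 ± 58.7 CPM, n = 5), and 1 further held-out transcript was in precursor-like cells. In lymphoid-like and endothelial-like cells, with 0 transcripts, the floor of 3 counts (44.6 and 93.4 CPM) lay above the microglia-like mean. Among the niche libraries, transcript numbers differed with the pool of molecular barcodes: in the full counts, microglia-like cells held 2 Tgfb1 transcripts in the 28 libraries with a pool of 256 barcodes (2.47 CPM, from 203 cells) and 25 in the 3 with a pool of 4096 (101.7 CPM, from 82 cells). Tgfbr1 in the same cells was 1644.9 and 1485.0 CPM. Over all wells, Tgfb1 was listed in 3 of the 28 libraries with the smaller pool and in 3 of the 3 with the larger pool. The old library, also with a pool of 4096, held 1 Tgfb1 transcript in 52 microglia-like cells (4.13 CPM). Pool, age and handling cannot be told apart in that single library. The part of the library type in the Tgfb1 level was not tested. The higher microglia-like level passed the test without the filter (against astrocyte-like cells at least 5.78-fold, adjusted p = 0.0214; against precursor-like cells a count ratio of 24.4 with a 95% interval of 3.75 to 1026.5, adjusted p = 0.0182). Both were lost without experiment 2 (adjusted p = 0.104 and 0.386) and without experiment 5 (adjusted p = 0.218 and 0.121).

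Among the receptors, Bmpr1b (ENSMUSG00000052430, chr3:141837136-142169425, minus strand), a type I BMP receptor, had its highest means in astrocyte-like and neural stem cell-like cells. Astrocyte-like cells held 113.2, 148.4, 120.5, 195.4 and 68.0 CPM in experiments 1 to 5 (129.1 ± 47.0 CPM, SD, n = 5), and neural stem cell-like cells 100.2, 10.8 and 126.4 CPM in experiments 1, 2 and 5 (79.1 ± 60.6 CPM, n = 3) from 1, 1 and 2 transcripts, so these 2 classes overlapped. The part of the astrocyte markers in neural stem cell-like sums in this overlap was not tested. No held-out Bmpr1b transcript was counted among 856998 transcripts of precursor-like cells or 527210 of microglia-like cells, and 2 among those of neuroblast-like cells. Astrocyte-like cells were at least 36.9-fold higher than precursor-like cells (adjusted p = 1.02e-15, edgeR without the filter) and at least 22.7-fold higher than microglia-like cells (adjusted p = 9.86e-13), both in 5 of 5 experiments. The count ratio to neuroblast-like cells was 63.6 (95% interval 16.9 to 537.2; adjusted p = 2.57e-14). The difference from endothelial-like cells, whose 2 sums held 0 transcripts, had an adjusted p of 0.0492, which rose to between 0.0537 and 1 when each experiment was left out. Stem cell-like and astrocyte-like cells did not differ by the test (log2 fold change -2.03 ± 0.82, SE; adjusted p = 0.338). For Bmpr1b, stem cell-like cells were not tested against the other classes. The endothelial-like floor of 3 counts (93.4 CPM) lay above the stem cell-like mean.

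Bmpr1a (ENSMUSG00000021796, chr14:34410734-34503341, minus strand), the other type I BMP receptor, was spread over the neural classes. Its mean was highest in neural stem cell-like cells, at 100.2, 107.6 and 505.8 CPM in experiments 1, 2 and 5 (237.9 ± 232.0 CPM, n = 3). These rested on 1, 10 and 8 held-out transcripts. In experiment 5 all 8 transcripts fell in the held-out portion. The full counts gave 252.0 CPM there and a class mean of 171.9 ± 71.9 CPM. Bmpr1a passed the filter on low counts only through this sum and the proliferating progenitor-like sum of experiment 1 (295.7 CPM). The astrocyte-like range was 16.5 to 88.8 CPM (62.1 ± 28.3 CPM, n = 5; 84.6 ± 32.9 CPM in the full counts). The difference was not called (log2 fold change 1.44 ± 0.615, SE; unadjusted p = 0.0204; adjusted p = 0.218). Precursor-like cells held 70.8 to 96 CPM (82.9 ± 11.4 CPM, n = 5), and no neighbouring classes in the full order of means differed by the test. Microglia-like cells held 43.0, 6.77, 44.3, 0 and 17.5 CPM (22.3 ± 20.5 CPM), all below the precursor-like sums, and fell below them in the test (log2 fold change -1.26 ± 0.539, SE; adjusted p = 0.0418; lower in 5 of 5 experiments). That call was lost without experiment 2, 4 or 5 (adjusted p = 0.377, 0.114 and 0.0953) and without the experiment as a replicate block (adjusted p = 0.131). With the relative log expression (RLE) scaling, which shifted the median log2 fold change of all genes between microglia-like and astrocyte-like cells by -0.45, Bmpr1a was also called lower in microglia-like than astrocyte-like cells (log2 fold change -1.61, adjusted p = 0.0112, against -1.13 and 0.0949 with the main scaling). It was also called with DESeq2 (adjusted p = 0.0154), with all counts (-1.81, 4.00e-04) and with recovered UMI numbers (-1.45, 0.0243). Endothelial-like and lymphoid-like sums held no Bmpr1a transcript. The floor of 3 counts was 93.4 CPM in the former, above the precursor-like mean, and 44.6 CPM in the latter.

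Bmpr2 (ENSMUSG00000067336, chr1:59763400-59879014, plus strand), the type II receptor shared by BMP ligands and mutated in heritable pulmonary arterial hypertension, was counted in all 9 classes, with means from 8.09 CPM in lymphoid-like to 345.1 CPM in endothelial-like cells. The endothelial-like mean came from 210.0 CPM in experiment 2 and 480.1 CPM in experiment 5 (345.1 ± 191.0 CPM, n = 2). Neuroblast-like cells stood at 200.5 ± 32.8 CPM, precursor-like cells at 174.6 ± 38.1 CPM, microglia-like cells at 150.3 ± 76.6 CPM and astrocyte-like cells at 74.8 ± 39.8 CPM (n = 5 each). The astrocyte-like levels of 34 to 131.9 CPM lay below every precursor-like level (140.6 to 216.0 CPM) and every neuroblast-like level (161.0 to 242.5 CPM), and overlapped the microglia-like levels (88.6 to 273.4 CPM). The 242.5 CPM came from 2 transcripts in the 7 cells of experiment 5, the sum with the choroid plexus markers. In the full counts the astrocyte-like range (48.3 to 115.6 CPM) overlapped the precursor-like range (105.2 to 213.4 CPM). It still lay below the neuroblast-like range (119.3 to 175.7 CPM). In the order of means, only microglia-like and astrocyte-like cells were neighbours that differed by the test. Relative to astrocyte-like cells the log2 fold change was 1.03 ± 0.399 in microglia-like cells (adjusted p = 0.023; higher in 4 of 5 experiments), 0.98 ± 0.382 in precursor-like cells (adjusted p = 0.0386) and 0.96 ± 0.39 in neuroblast-like cells (adjusted p = 0.0383). These calls depended on several settings: with RLE the adjusted p was 0.223, 0.0554 and 0.395, and with DESeq2 0.248, 0.0732 and 0.391, with the direction unchanged. With a second random division of the transcripts it was 0.258, 0.35 and 0.675 (log2 fold changes 0.55, 0.53 and 0.24), without the filter 0.295, 0.175 and 0.25, and without the plates with the larger barcode pool 0.0634, 0.229 and 0.227. With all counts the neuroblast-like call was lost (0.6, adjusted p = 0.153). They were also lost without experiment 1 for microglia-like cells (adjusted p = 0.148) and without experiment 2, 3 or 5 for precursor-like cells (0.126, 0.0609 and 0.0987) and for neuroblast-like cells (0.0506, 0.106 and 0.0765).

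Tgfbr1 (ENSMUSG00000007613, chr4:47353222-47414931, plus strand), the type I TGF-beta receptor, was the member with the clearest class difference. In microglia-like cells its level was 1922.2, 1441.9, 856.6, 1595.0 and 1414.1 CPM in experiments 1 to 5 (1445.9 ± 386.4 CPM, SD, n = 5), and 269 of 285 cells (94.4%) had a transcript. The lowest of these values was above the highest of any other tested class, 171.1 CPM in the lymphoid-like sum of experiment 1. Astrocyte-like cells held 27.4 ± 11.9 CPM and precursor-like cells 39.2 ± 21.5 CPM (n = 5 each), and 26 of 226 astrocyte-like cells (11.5%) had a transcript. Microglia-like cells rose above astrocyte-like cells by a log2 fold change of 5.70 ± 0.378 (SE; adjusted p = 2.18e-34) and above precursor-like cells by 5.28 ± 0.345 (adjusted p = 1.99e-35), in 5 of 5 experiments each. Below microglia-like cells, no neighbours in the order of means differed by the test. Tgfbr1 passed the filter on low counts through microglia-like cells alone, so a difference from the other classes was built into its being tested.

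Tgfbr2 (ENSMUSG00000032440, chr9:116084293-116175360, minus strand), the ligand-binding type II TGF-beta receptor, was high in vascular and immune cells and near the counting floor in the oligodendrocyte lineage. Microglia-like cells held 619.2, 426.5, 177.2, 273.4 and 506.3 CPM in experiments 1 to 5 (400.5 ± 177.3 CPM, n = 5). Endothelial-like cells held 252.1 CPM in experiment 2 and 600.2 CPM in experiment 5 (426.1 ± 246.2 CPM, n = 2), within the microglia-like range, and the 2 classes did not differ by the test (adjusted p = 0.178). Lymphoid-like cells came next with 97.1 to 171.1 CPM (128.3 ± 38.4 CPM, n = 3), with a lower mean than either. They differed by the test from microglia-like cells (adjusted p = 1.48e-05) and from neuroblast-like cells, the next class (adjusted p = 0.0164). Astrocyte-like cells stood at 20.1 ± 18 CPM and precursor-like cells at 2.71 ± 3.74 CPM, from 5 transcripts. The neuroblast-like mean of 29.9 ± 46.4 CPM was set by experiment 1 (111.7 CPM, from 2 transcripts in 9 cells).

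Microglia-like cells rose in Tgfbr2 above astrocyte-like cells by a log2 fold change of 4.33 ± 0.457 (SE; adjusted p = 4.31e-17) and above precursor-like cells by 6.48 ± 0.493 (adjusted p = 2.14e-28), in 5 of 5 experiments each. Endothelial-like cells rose above astrocyte-like cells by 3.22 ± 0.797 (adjusted p = 7.50e-04; 2 of 2 experiments), a call lost without experiment 5 (adjusted p = 0.0636) and without the plates with the larger barcode pool (adjusted p = 0.117). The lower precursor-like than astrocyte-like level (log2 fold change -2.16 ± 0.835; adjusted p = 0.0384) rested on 5 against 8 transcripts and was lost when any 1 of the 5 experiments was left out (adjusted p = 0.0505 to 0.167). Tgfbr2 passed the filter on low counts through microglia-like and endothelial-like cells alone. A difference of these classes from the others was thus built into its being tested.

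**Figure D3:**
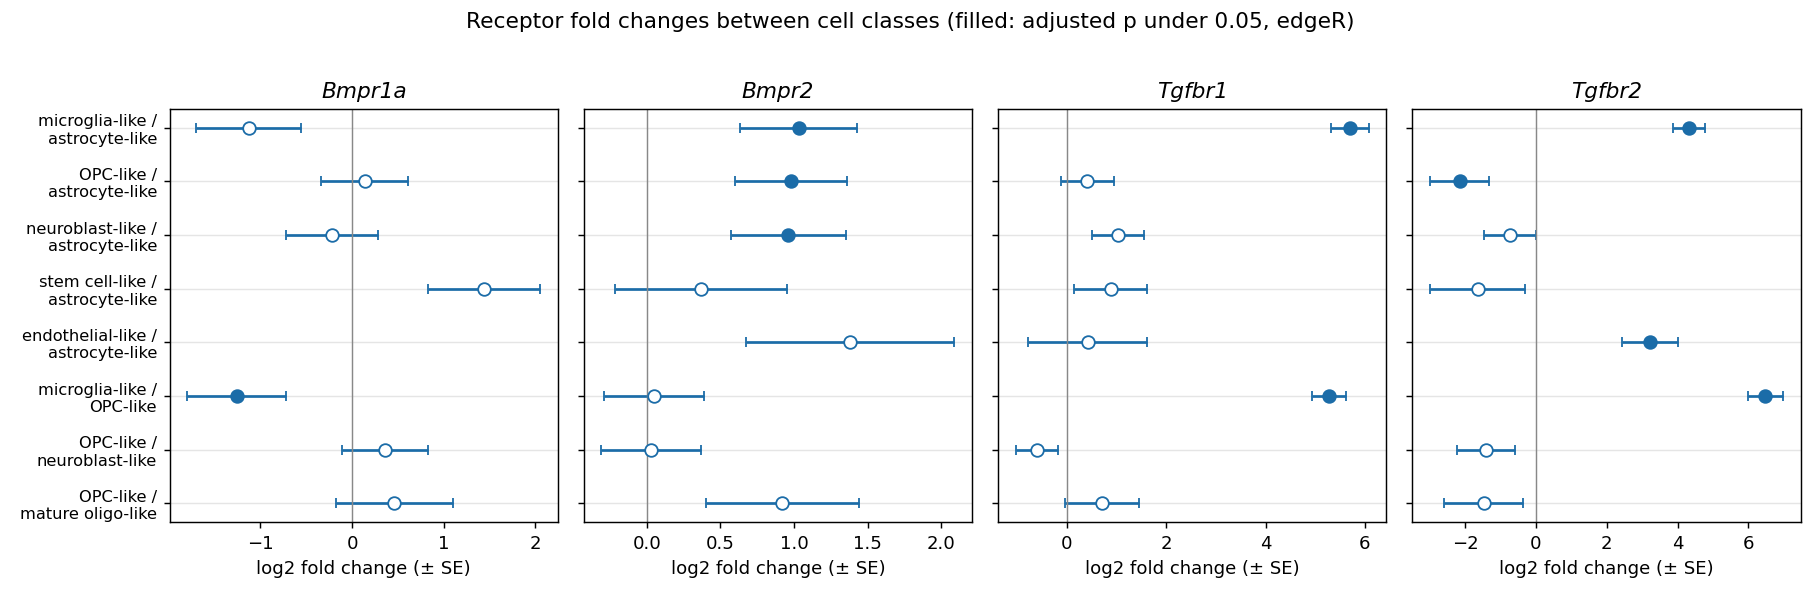
Log2 fold change ± SE (x axis) of 4 receptors in 8 comparisons of cell classes (y axis; first class over second), from the joint edgeR fit, with filled points for an adjusted p under 0.05; comparisons in which a class held no transcript are not drawn. Tgfbr1 and Tgfbr2 were higher in microglia-like cells in both of their comparisons, with log2 fold changes of 4.33 to 6.48, while the called changes of Bmpr1a and Bmpr2 lay between -1.26 and 1.03.

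Noggin (ENSMUSG00000048616, chr11:89300638-89302332, minus strand), the secreted inhibitor of BMP ligands, was sparse. Precursor-like cells held 20 held-out transcripts, at a mean of 15 ± 14 CPM (n = 5) with a highest value of 29.6 CPM in experiment 2 and 0 in experiments 4 and 5. Astrocyte-like cells held 4 (7.74 ± 10.9 CPM), and no other tested class held any. The floor of 3 counts lay above the precursor-like mean in endothelial-like (93.4 CPM), lymphoid-like (44.6 CPM) and neural stem cell-like cells (25.3 CPM). It also did in proliferating progenitor-like (19.7 CPM) and mature oligodendrocyte-like cells (15.9 CPM). Of 271 precursor-like cells, 28 (10.3%) had a Nog transcript in the full counts; 21 of these also had Bmp7 and 8 had Bmp4. Without the filter, Nog was called at least 4.7-fold higher in precursor-like than neuroblast-like cells (adjusted p = 0.0295) and at least 2.63-fold higher than in microglia-like cells (adjusted p = 0.0131). Both calls were lost without experiment 1 (adjusted p = 0.119 and 0.233) and without experiment 2 (0.761 and 0.233), and the former also without experiment 3 (0.0608).

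Differences between classes were common over all genes, and the members' counts are given beside them. Of the 10, 5 passed the filter on low counts (Bmp4, Bmpr1a, Bmpr2, Tgfbr1 and Tgfbr2). Between microglia-like and astrocyte-like cells 3 of these 5 were called, all higher in microglia-like cells, beside 49.4% of the 4043 genes tested. Between precursor-like and astrocyte-like cells 3 of 5 were called, beside 28.5% of genes. For microglia-like against precursor-like cells it was 4 of 5, beside 49.2%. In the remaining comparisons the counts were small: 1 of 5 for neuroblast-like against astrocyte-like cells, beside 40.5%; 1 of 5 for endothelial-like against astrocyte-like cells, beside 21.2%; 1 of 5 for precursor-like against neuroblast-like cells, beside 30.2%; and 1 of 5 for precursor-like against mature oligodendrocyte-like cells, beside 27.9%. Between neural stem cell-like and astrocyte-like cells edgeR and DESeq2 each called 0 of 5, beside 4.13% of genes in edgeR, and 1 member (Bmpr1a) had an unadjusted p under 0.05 in edgeR. Each count with precursor-like cells includes Bmp4, whose difference was built into its passing the filter. Leaving out Bmp4, 2 of 4 members were called against astrocyte-like cells and 3 of 4 against microglia-like cells, and 0 of 4 against neuroblast-like and mature oligodendrocyte-like cells. Each count with microglia-like cells, the 3 of 4 among them, includes Tgfbr1, which passed the filter through microglia-like cells alone. Each also includes Tgfbr2, which passed through microglia-like and endothelial-like cells alone. The 1 member called for endothelial-like against astrocyte-like cells was Tgfbr2.

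Without the filter all 10 genes were tested among 16811. The share of genes called fell to 21.2% for microglia-like against astrocyte-like cells, where 6 of 10 members were called, to 11.3% for precursor-like against astrocyte-like cells (4 of 10), and to 24.1% for microglia-like against precursor-like cells (8 of 10). It was 14.7% for neuroblast-like (2 of 10), 1.08% for neural stem cell-like (0 of 10 in edgeR, 1 with an unadjusted p under 0.05) and 4.94% for endothelial-like against astrocyte-like cells (2 of 10). It was 10.6% for precursor-like against neuroblast-like cells (3 of 10) and 8.99% for precursor-like against mature oligodendrocyte-like cells (2 of 10). The scaling moved the balance of all calls as well: of the genes called, 48.3% were higher in microglia-like than astrocyte-like cells with the main scaling and 35.0% with RLE, 44.7% and 24.2% in neuroblast-like against astrocyte-like cells, 48.6% and 36.0% in microglia-like against precursor-like cells, and 55.9% and 75.6% in precursor-like against neuroblast-like cells. For endothelial-like against astrocyte-like cells the split was 37.9% with the main scaling and 49.2% with DESeq2.

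Classes found in too few experiments for a test also carried these genes. The 12 fibroblast-like cells of experiment 4 held Bmp7 at 734.9 CPM (95% Poisson interval 525.0 to 1000.7), above the precursor-like level of every experiment; in the full counts 1 cell carried 26 Bmp7 transcripts. They held Bmp4 at 238.8 CPM (127.2 to 408.4), from 13 transcripts, and Tgfbr1 and Tgfbr2 at 220.5 CPM each (113.9 to 385.1). The 21 mural-like cells of experiment 2 held Tgfbr1 at 418.3 CPM (200.6 to 769.2) and Tgfbr2 at 125.5 CPM (25.9 to 366.7). The 12 cells of experiment 4 in the cluster led by haemoglobin genes held Tgfbr1 at 363.9 CPM (245.5 to 519.4). These intervals cover counting error only.

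In the library from old mice, TGF-beta receptors in microglia-like cells lay within the niche range. The 52 microglia-like cells had Tgfbr1 at 1525.1 CPM (95% Poisson interval 1313.3 to 1761.5) and Tgfbr2 at 428.7 CPM (320.2 to 562.2). Its 19 precursor-like cells had Bmp4 at 128.4 CPM (64.1 to 229.7), inside its niche range, and Bmp7 at 93.4 CPM (40.3 to 184.0), below the lowest niche experiment at 129.1 CPM but with an interval that includes it. Microglia-like Bmpr2 in the old library was 49.5 CPM (18.2 to 107.7), from 6 transcripts, below the 88.6 CPM of the lowest niche experiment and with an interval that includes it. Other values lay above the niche range with intervals that reach into it: Bmpr1a at 66.0 CPM in microglia-like (28.5 to 130) and 163.4 CPM in precursor-like cells (89.3 to 274.2), and Bmpr2 at 245.1 CPM in precursor-like cells (151.7 to 374.7). No Bmpr1b transcript was held out in any old class, with 6 astrocyte-like and 2 neural stem cell-like cells, and none of Nog in precursor-like cells (5 in the full counts). With 1 old library, no test of age was possible.

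The Nestin-GFP library held no microglia-like sum. Its 69 precursor-like cells had Bmp4 at 74.9 CPM (44.4 to 118.4) and Bmp7 at 70.8 CPM (41.2 to 113.3), the latter below every niche experiment (129.1 to 192.0 CPM). Its 94 astrocyte-like cells had Bmpr1b at 131.7 CPM (89.5 to 186.9), Tgfb2 at 76.5 CPM (45.3 to 120.8) and Tgfbr2 at 4.25 CPM (0.108 to 23.7), from 1 transcript. Its 14 endothelial-like cells had Bmpr2 at 722.2 CPM (373.2 to 1261.6) and Tgfbr2 at 421.3 CPM (169.4 to 868.1). Experiment 5, made of plates with the same number of wells and barcode pool, had precursor-like Bmp7 at 192.0 CPM (82.9 to 378.3), from 8 transcripts. That interval overlaps the one of the Nestin-GFP library. The mouse line, the sort and the handling of this single library cannot be told apart.

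**Figure D4:**
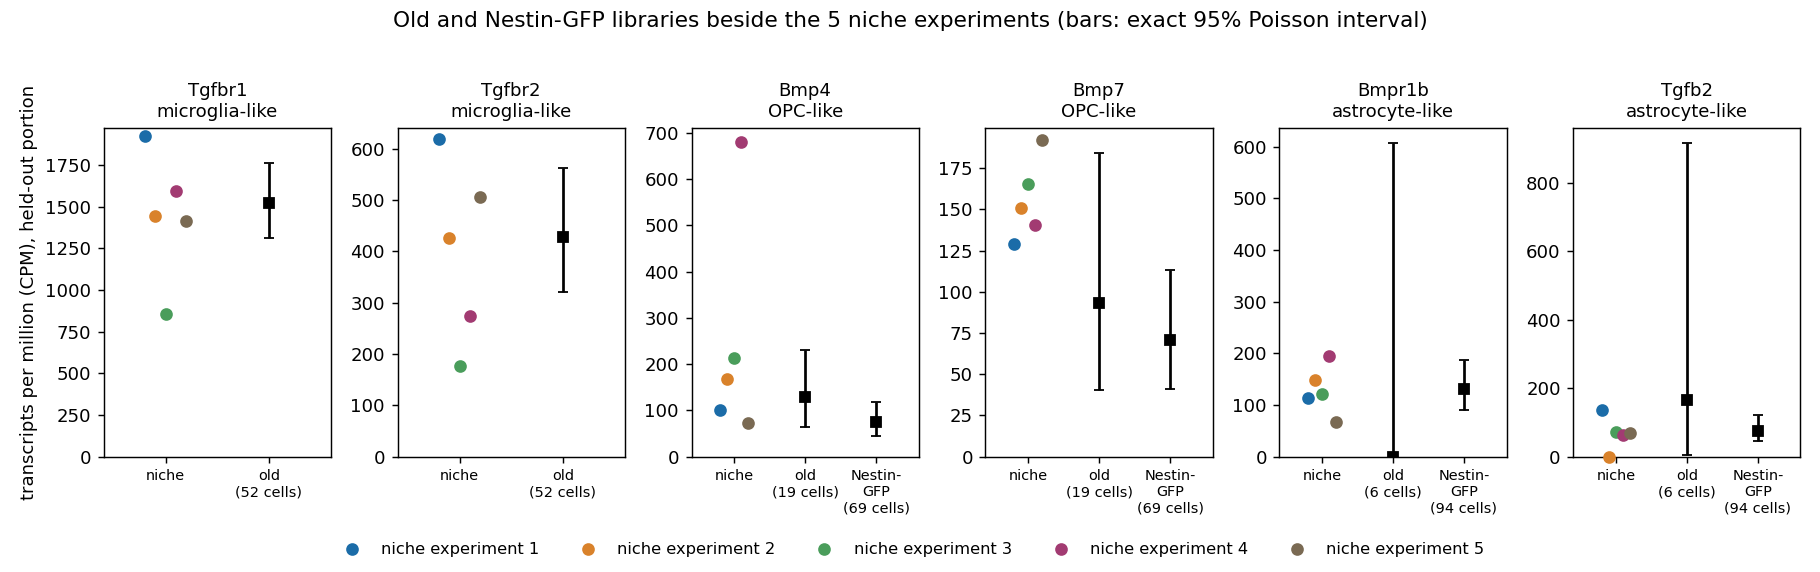
Held-out CPM (y axes) of 6 gene and class pairs, with coloured points for the 5 niche experiments and black squares for the old library and the Nestin-GFP library (with exact 95% Poisson intervals, counting error only; x axis, library group). The old microglia-like levels of Tgfbr1 and Tgfbr2 lay within the niche experiments, and the Nestin-GFP level of Bmp7 in precursor-like cells (70.8 CPM) lay below them; y axes start at 0 and differ between panels.

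The genes most like each tested member were taken by Pearson's r of log2(CPM + 10) over the 34 sums, which share experiments and depth. For Bmp4 they were the somatostatin receptor Sstr1 (r = 0.94), the extracellular matrix gene Tnr (0.924) and the sialidase Neu4 (0.923). For Tgfbr1 they were P2ry12, a purinergic receptor used as a microglia marker (0.91), Cyth4 (0.879) and the co-stimulatory molecule Cd86 (0.871). Tnr and Neu4 belong to the marker set that named precursor-like clusters, and P2ry12 to that of microglia-like clusters. Their r is therefore not independent of the naming. For Tgfbr2 they were Rnase4 (0.909), the growth factor Pdgfb (0.851) and the caspase Casp8 (0.848). For Bmpr2 they were Rab11a (0.885), Asxl1 (0.813) and Psmd7 (0.795), and for Bmpr1a Hsd17b12 (0.85), Epdr1 (0.783) and Magi1 (0.778).

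Of 74 other genes of the pathway, 73 were in the files and 19 passed the filter, none of them a ligand. The filter keeps a gene that is high in a single class, so a difference between classes can be built into a gene's being tested. How far this holds for each pathway gene, and for the shares called, was not tested. Between microglia-like and astrocyte-like cells 8 of the 19 were higher and 9 lower (89.5% called, beside 49.4% of all genes), with a median log2 fold change of -0.86 against -0.04 over all genes. The transcriptional corepressor Skil, which binds Smads, was at 641.9 ± 352.1 CPM in microglia-like and 4.99 ± 7.29 CPM in astrocyte-like cells (adjusted p = 9.10e-26), and the inhibitory Smad gene Smad7 at 292.0 ± 129.8 and 6.79 ± 15.2 CPM (adjusted p = 6.20e-16). Itgb5, an integrin subunit that takes part in activating latent TGF-beta, and the cell cycle inhibitor Cdkn1a were also higher in microglia-like cells (log2 fold changes 3.23 ± 0.309 and 6.05 ± 0.583, SE). The BMP target genes Id4 (626.0 ± 176.9 CPM in astrocyte-like and 6.15 ± 8.52 CPM in microglia-like cells) and Id3 (443.3 ± 213.8 and 16.4 ± 10.9 CPM), the secreted protease Htra1 and the BMP co-receptor Rgma were lower in microglia-like cells. Relative to precursor-like cells, 9 were higher in microglia-like cells and 6 lower (78.9% called, beside 49.2%; median 0.50 against -0.10), with Itgb5, Skil, Cdkn1a and Smad7 again higher and Tsc22d1, Neo1, Htra1 and Ltbp4 lower.

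Between precursor-like and astrocyte-like cells 3 of 19 pathway genes were higher and 7 lower (52.6% called, beside 28.5% of all genes; median 0.34 against 0.03). Tsc22d1, a TGF-beta-induced gene, was at 1034.9 ± 152.5 CPM in precursor-like and 192.3 ± 37.1 CPM in astrocyte-like cells (adjusted p = 1.66e-10), and Skil and Ltbp4, a latent TGF-beta binding protein, were also higher. Id4 (log2 fold change -5.47 ± 0.411, SE), Htra1, Id3 and Itgb5 were lower. In neuroblast-like cells 4 were higher and 8 lower than in astrocyte-like cells (63.2% called, beside 40.5%; median -0.68 against 0.01), with Htra1, Id4, Id3 and Itgav lower and Tsc22d1, Neo1, Smad4 and Skil higher. In neural stem cell-like cells 0 were higher and 2 lower (10.5% called, beside 4.13%; median 0.32 against -0.19): Htra1, at 745.8 ± 505.9 against 1934.0 ± 475.5 CPM, and Id2, at 333.6 ± 142.8 against 932.6 ± 152.3 CPM.

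Endothelial-like cells carried receptors of the same superfamily that were at 0 in astrocyte-like sums: the co-receptor Eng (588.1 and 1320.4 CPM; adjusted p = 3.41e-10) and the type I receptor Acvrl1 (630.1 and 720.2 CPM; adjusted p = 3.34e-09), both textbook endothelial genes. Eng and Acvrl1 were also called higher in microglia-like than astrocyte-like cells, the 2 higher of 4 tested receptors and co-receptors. The other 2, Rgma and Neo1, had lower means in microglia-like cells (14.9 against 189.5 and 12.5 against 128.5 CPM). In endothelial-like cells, 8 of 19 pathway genes were higher and 7 lower than in astrocyte-like cells (78.9% called, beside 21.2%; median 1.38 against -0.56). Within the oligodendrocyte lineage, 3 were higher in precursor-like than mature oligodendrocyte-like cells (Tsc22d1, Id2 and Itgav) and 1 lower: Smad7, at 28.3 ± 25.9 CPM in precursor-like and 271.7 ± 72.1 CPM in mature oligodendrocyte-like cells (adjusted p = 4.16e-08; 21.1% of the list called, beside 27.9%; median 0.86 against 0.27). Between precursor-like and neuroblast-like cells 4 were higher in precursor-like cells (Itgav, Htra1, Tsc22d1 and Ski) and 3 lower (Id2, Id4 and Id1), 36.8% called beside 30.2% of all genes, with a median of -0.27 against -0.04.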

How the data were processed

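The authors deposited 1 table per library with an estimated count for each gene in each well. Per the submitters' processing notes, BWA 0.6.2-r126 and the mm10 build were used; annotation and counting tool: not given in the sources used here. From the values, the authors' molecular barcode (UMI) numbers had been corrected for saturation of a pool of 256 barcodes, or of 4096 in 3 niche plates and both other libraries: undoing that correction gave whole numbers, within 0.05, for 99.33 to 100% of values. The estimated counts were rounded.

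Wells with at least 1000 transcripts were kept. Transcripts were divided at random into 50% for clustering (scanpy 1.11.5: 2000 variable genes, 30 components, 15 neighbours, Leiden resolution 1) and a held-out portion. Clusters were named from 16 marker sets; the naming thresholds and a second clustering round were set after the clusters had been seen, so the names are rebuilt ones. No doublet caller was run; an alternative left out 538 niche cells with 3 or more markers of a second class. Each library uses the same well barcodes, so shared barcodes do not show shared cells.

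Held-out counts were summed per experiment and class (at least 5 cells) and tested jointly over all 9 classes with edgeR 4.0.16 (R 4.3.3; TMM scaling, filterByExpr, class plus experiment as a replicate block, quasi-likelihood test), with p-values adjusted by Benjamini-Hochberg over all genes at 0.05. The block pairs sums of the same experiment, whose cells share their libraries. DESeq2 1.42.0 was an alternative, with RLE scaling, no filter, other cell and cluster settings and each experiment left out. Folds against a class at 0 set the mean over the experiments with both classes against a floor of 3 counts over the class at 0. Exact Poisson intervals (95%) cover counting error only (scipy 1.17.1, numpy 2.4.6; figures with matplotlib 3.10.9). The edgeR step was tested on simulated data. Gene coordinates are from the GENCODE annotation of mm10. 3' counts are not scaled by length, so levels were not compared between genes.

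All 10 members are named; of the other pathway genes, up to 4 per direction and comparison with the smallest p among those called; and the 3 genes most correlated with each tested member. The members and lists were chosen with earlier results of these data known.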

Additional observations from a re-analysis of the deposited data

Results flagged for a closer look

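In 28 groups of 4 or 5 experiments, the highest or lowest value was compared with the rest by Dixon's test. Chance alone flags about 1 of 20 groups when values are normally distributed. That rate does not apply to groups with few transcripts in sums of unequal size, so the number flagged was not compared with it. In precursor-like cells, Bmp4 stood apart in experiment 4, at 679.4 CPM against 72 to 212.5 CPM in the others. The other 3 values were in neuroblast-like cells: Bmp4 in experiment 4 (8.68 CPM against 0 to 2.44), Bmp7 in experiment 5 (121.2 CPM, from 1 transcript, against 0 to 8.68) and Tgfbr2 in experiment 1 (111.7 CPM, from 2 transcripts, against 0 to 21.7).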

How the results depend on the processing

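No call reversed under any alternative run, although with all counts the order of the Tgfb2 means in neuroblast-like and astrocyte-like cells turned. The number of members called between microglia-like and astrocyte-like cells (3) became 7 with all counts, 6 without the filter on low counts and 5 with recovered UMI numbers. For precursor-like against astrocyte-like cells (3), it became 1 with DESeq2, 6 with all counts, 0 with at least 2000 transcripts per cell, 1 with only the 2 classes compared and 0 without the cells with markers of a second class. For neuroblast-like against astrocyte-like cells (1), it became 2 with all counts, at least 10 or at least 3 cells per sum, no filter or recovered UMI numbers, and 0 with DESeq2, RLE, resolution 0.6 or 1.5, a second seed of the division, or without the cells with markers of a second class. For endothelial-like against astrocyte-like cells (1), it became 4 with all counts, 2 without the filter and 0 without the plates with a pool of 4096. For microglia-like against precursor-like cells (4), it became 8 without the filter, 2 with only the 2 classes compared and 2 without the cells with markers of a second class. For precursor-like against neuroblast-like cells (1) and against mature oligodendrocyte-like cells (1), it became 0 with DESeq2, at least 2000 transcripts, only the 2 classes compared, or without the cells with markers of a second class. For both it became 3 with all counts, and 2 with at least 10 cells per sum, resolution 0.6 or 1.5, or without the plates with a pool of 4096. Without the filter it became 3 against neuroblast-like cells and 2 against mature oligodendrocyte-like cells; it was 2 for the former with recovered UMI numbers and 2 for the latter with the second seed. Bmp4 failed the filter in several of these settings; the other causes were not tested. For neural stem cell-like against astrocyte-like cells and for the Gpr17 split it was 0 in every alternative that could be fitted; the former could not be fitted at 10 cells per sum.

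Without the replicate block, the experiment term that pairs sums, the count was 1 for precursor-like against astrocyte-like cells and 0 for neuroblast-like against astrocyte-like cells, and the other counts stayed within 1.5 times.

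With each experiment left out in turn, the counts ranged from 2 to 4 for microglia-like, 0 to 3 for precursor-like, 0 to 1 for neuroblast-like, 0 to 1 for endothelial-like and 0 to 0 for neural stem cell-like against astrocyte-like cells. They ranged from 2 to 4 for microglia-like against precursor-like cells, 0 to 2 for precursor-like against neuroblast-like cells and 0 to 2 for precursor-like against mature oligodendrocyte-like cells. Without the filter, an alternative chosen after seeing the data, the ranges in the same order were 4 to 6, 3 to 4, 1 to 2, 0 to 1, 0 to 0, 4 to 8, 2 to 3 and 0 to 2. The Gpr17 split had 2 experiments, and neither was left out. Depth limits many of these values: among others, neural stem cell-like Bmpr1b rests on 4 held-out transcripts and precursor-like Tgfbr2 on 5.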
